A study of Nicotiana benthamiana with 8 samples.

Results

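The members described here are the contigs of Nicotiana benthamiana leaves that carry the name of a UDP-glycosyltransferase or a beta-glucosidase. They were taken by the words of the deposited annotation (UDP-glycosyltransferase, UDP-glucosyltransferase, O-glucosyltransferase, glucosyl transferase or beta-glucosidase) or by the Arabidopsis symbol BGLU45, and contigs named for xylan were to be left out, of which there were 0. This gave 20 of the 3305 contigs of the deposited table. By their annotation, 7 are glucosyltransferases of anthocyanidins or flavonoids, 4 are other UDP-glycosyltransferases, 2 are beta-glucosidases, and 7 are glucan endo-1,3-beta-glucosidases. The last 7 do not belong to the beta-glucosidase family. They share only the word, and are described under their own name, with the counts for the other 13 members given apart from them.

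MdMYB68 leaves were infiltrated with Agrobacterium tumefaciens GV3101-pMP90 carrying apple MdMYB68, fused to GFP, behind the 35S promoter in the p103 vector. Control leaves received the same strain carrying empty p103, without this fusion. Both groups also received pBIN61-p19, which encodes a viral suppressor of gene silencing, and both came from 4-week-old plants. There were 4 libraries per group, each from a pool of 3 plants with 4 infiltrated leaves per plant, collected 4 days after infiltration and sequenced as 75 base-pair paired-end reads. The factor is an apple protein made for a few days, under a strong viral promoter, in the leaf of another species, so the comparison is of a forced, transient expression outside its own host. Reads of the apple gene were not analysed here, and the labels could not be checked on it. The study used it to ask which genes respond to MdMYB68, a candidate regulator of suberin in russeted apple skin.

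UDP-glycosyltransferases move a sugar from a nucleotide sugar onto a small molecule such as a flavonoid, a hormone or a monolignol, which makes the product more soluble and lets it be stored in the vacuole. Beta-glucosidases take the glucose off again, and in Arabidopsis BGLU45 and its close relatives act on the glucosides of monolignols, the precursors of lignin and of the phenolic part of suberin. Glucan endo-1,3-beta-glucosidases cut callose, a glucan of the cell wall that lines plasmodesmata and new cell plates. Several proteins with these names also carry an X8 domain, a carbohydrate-binding module that is found alone in the callose-binding proteins of plasmodesmata.

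The MdMYB68 libraries had between 31244291 and 34080202 mapped reads and the empty vector libraries between 29371282 and 32279582. Of these, 17.5% to 18.7% fell on the listed contigs with MdMYB68 and 6.92% to 8.76% with the empty vector. Levels are given as RPKM, reads per kilobase of contig scaled to the library total, here all reads mapped in that library. The study listed a contig only where its groups differed by at least 4-fold and by 5 RPKM at a false discovery rate of 0.001. The tests below are therefore not independent evidence of a difference, and every one of the 3305 contigs (100%) has groups that do not overlap. The annotation of leaf mesophyll markers (chlorophyll a-b binding proteins, the small subunit of ribulose bisphosphate carboxylase, photosystem proteins) matched 58 listed contigs, and all 58 were lower with MdMYB68, 57 of them past the test. Over all 3305 listed contigs 411 were called lower, and markers that did not meet the study's limits were not listed. The 58 contigs took 6013 to 9326 reads per 1000000 mapped reads with MdMYB68, against 26246 to 38121 with the empty vector, so that leaf transcripts were present in both groups. The part of this difference in the results below was not tested. In bulk leaves, a change in the number of cells that make a transcript and a change in the transcript per cell cannot be told apart. Of the other markers searched, those of phloem, guard cells and xylem matched 0 listed contigs, and root endodermis markers matched 2 contigs of MYB36, both called higher with MdMYB68.

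With all mapped reads as library size, all 20 members were higher in the leaves expressing MdMYB68, while 5 of them turned lower under the factors described in the next paragraph. Each passed edgeR's quasi-likelihood test at a Benjamini-Hochberg adjusted p under 0.001. Over all listed contigs 95.9% passed this test in either direction and 83.4% passed it as higher in MdMYB68, so that this count is near what the selected table gives for any annotation. The log2 fold changes ran from 2.18 to 9.92 with a median of 5.19, beside a median of 3.34 over all listed contigs, and 14 of the 20 members lay above that median. The 13 members without the glucan endo-1,3-beta-glucosidases were all called higher, with a median of 5.09.

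These directions hold against all mapped reads. Scaling factors computed on the listed contigs, which treat most of a selected list as unchanged, lowered the median of all listed contigs from 3.34 to 0.40 (TMM) or 0.43 (DESeq2). With TMM factors 15 members kept a positive log2 fold change and 11 were called higher, where 29.2% of all listed contigs were. With the size factors of DESeq2 these numbers were 15 and 12, where 37.1% of all listed contigs were called higher. The contigs that turned negative were both beta-glucosidases, the zeatin O-glucosyltransferase Nbv5tr6222199, the flavonoid glucosyltransferase Nbv5tr6225701 and the endo-1,3-glucosidase Nbv5tr6430676. Of the 13 members without the glucan endo-1,3-beta-glucosidases, 9 stayed positive with TMM factors, 7 were called higher and 2 lower. Over all 3305 listed contigs 964 were then called higher and 612 lower. Relative to the median of all listed contigs in the same scaling, each member lay on the same side with TMM factors as with all mapped reads. This could hardly be otherwise, because the factors move all contigs by about the same amount, and it is no separate evidence.

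Together the members took 4521 to 4995 reads per 1000000 mapped reads with MdMYB68 (mean 4689 ± 216, SD, n = 4), against 85.7 to 92.1 with the empty vector (mean 88.7 ± 3.38, SD, n = 4). Most of the reads belonged to few of them. The pair of UGT78D2 contigs and the endo-1,3-glucosidase contig Nbv5tr6225572 held 88.3% to 88.7% of the member reads with MdMYB68, against 43.6% to 51.8% with the empty vector. The beta-glucosidases held 2.12% to 2.35% of them with MdMYB68, against 20.4% to 24.0% with the empty vector, although their own reads were also higher (96.2 to 107 per 1000000 mapped reads with MdMYB68, against 18.6 to 20.6 with the empty vector).

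**Figure D1:**
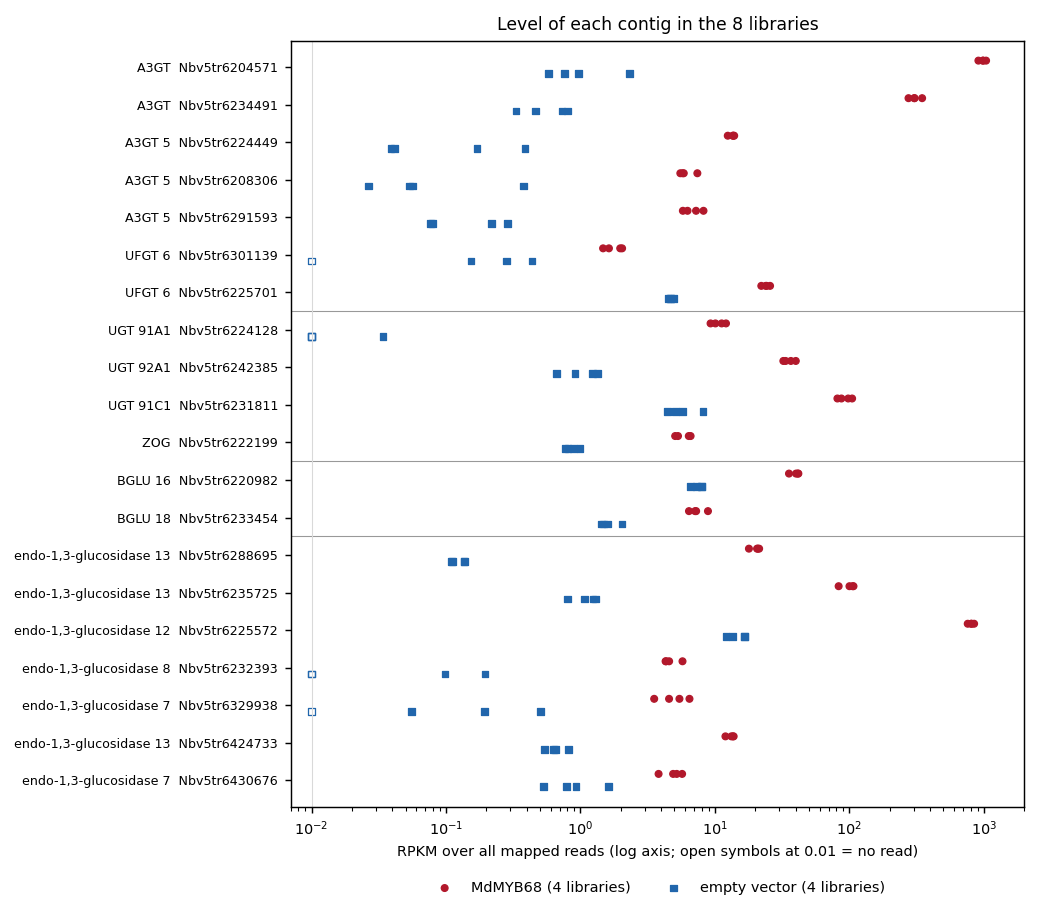
RPKM over all mapped reads of each of the 20 contigs on a log axis, one point per library, with the 4 MdMYB68 libraries as circles and the 4 empty vector libraries as squares, and open symbols at 0.01 for a library with no read. A3GT stands for anthocyanidin 3-O-glucosyltransferase, UFGT for UDP-glucose flavonoid 3-O-glucosyltransferase, ZOG for zeatin O-glucosyltransferase and BGLU for beta-glucosidase, and the lines part the 4 kinds of enzyme. No contig has overlapping groups, and the gap is widest for UGT 91A1 and the first A3GT contigs and narrow for the BGLU contigs.

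With MdMYB68, the anthocyanidin 3-O-glucosyltransferases matched to UGT78D2 were the most abundant UDP-glycosyltransferases. UGT78D2 of Arabidopsis puts glucose on the 3-hydroxyl of flavonols and anthocyanidins. The contig Nbv5tr6204571, of 1552 bases, had 986, 983, 1038 and 910 RPKM in the MdMYB68 libraries, against 2.33, 0.967, 0.577 and 0.759 RPKM in the empty vector libraries. It ranked first among the members with MdMYB68 and sixth with the empty vector. Its mean was 979 ± 52.5 RPKM with MdMYB68 and 1.16 ± 0.795 RPKM with the empty vector (SD, n = 4 each), a ratio of 846. The log2 fold change was 9.73 ± 0.45 (SE), with an adjusted p of 1.0e-08 in edgeR.

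Nbv5tr6234491, of 1494 bases and with the same annotation, had 303, 305, 347 and 275 RPKM with MdMYB68, against 0.729, 0.460, 0.799 and 0.332 RPKM with the empty vector. Its log2 fold change was 9.05 ± 0.27 (SE) with an adjusted p of 7.1e-10 in edgeR. Between 98.2% and 98.3% of the reads of these contigs were placed on no other contig, so that each was counted largely from its own sequence. Nbv5tr6204571 stood 2.99 to 3.31 times above Nbv5tr6234491 in every MdMYB68 library. In the empty vector libraries, where 16 to 106 reads lay on each contig, the ratio ran from 0.722 to 3.19.

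Contigs annotated as anthocyanidin 3-O-glucosyltransferase 5 were far less abundant. Their Arabidopsis symbols are of the UGT72 family, whose members UGT72E1 to UGT72E3 in Arabidopsis glucosylate monolignols and their aldehydes. The best Arabidopsis hit is named anthocyanidin 3-O-glucosyltransferase 5-like for Nbv5tr6224449 and Nbv5tr6208306, and UDP-glycosyltransferase 72D1 for Nbv5tr6291593. Nbv5tr6208306, the contig matched to UGT72E1, had 5.53, 7.40, 5.74 and 5.86 RPKM with MdMYB68, against 0.378, 0.0534, 0.0567 and 0.0265 RPKM with the empty vector. The first empty vector library stood above the other 3 of its group, with 13 reads where they had 1 or 2. The log2 fold change was 5.57 ± 0.60 (SE, adjusted p = 5.4e-06 in edgeR), and without that library 6.98. With TMM factors it was 2.65 and did not pass the test (adjusted p = 0.0022).

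The other contigs of this name, Nbv5tr6224449 (800 bases) and Nbv5tr6291593 (430 bases, from the alternate set of contigs), both matched AT2G18570, a UGT72D gene. Nbv5tr6224449 had 13.7, 13.9, 13.6 and 12.5 RPKM with MdMYB68, against 0.170, 0.0391, 0.0415 and 0.387 RPKM with the empty vector. Its log2 fold change was 6.34 ± 0.49 (SE, adjusted p = 4.4e-07 in edgeR) and 7.27 without the fourth empty vector library, which held 10 of its 16 empty vector reads. Nbv5tr6291593 had 8.22, 7.23, 6.25 and 5.77 RPKM with MdMYB68, against 0.0792, 0.218, 0.0772 and 0.288 RPKM with the empty vector, a log2 fold change of 5.28 ± 0.38 (SE, adjusted p = 2.3e-07 in edgeR). All reads of both contigs were uniquely placed. Both contigs are shorter than the UGT78D2 contigs.

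The UDP-glucose flavonoid 3-O-glucosyltransferase 6 contigs changed least of this kind. Their Arabidopsis match is HYR1, a glycosyltransferase that in Arabidopsis glucosylates the synthetic compound hypostatin, which then inhibits growth. Nbv5tr6225701 had 24.2, 23.9, 25.7 and 22.1 RPKM with MdMYB68, against 4.67, 4.66, 4.95 and 4.48 RPKM with the empty vector. Its log2 fold change of 2.35 ± 0.10 (SE, adjusted p = 8.0e-09 in edgeR) lay below the median of the table and became -0.60 with TMM factors. Of its reads 56.2% were uniquely placed, and these alone gave 2.39.

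None of the reads of the second HYR1 contig, Nbv5tr6301139, was uniquely placed, so its values cannot be separated from those of the contigs it shares reads with. It had 1.97, 1.47, 2.04 and 1.63 RPKM with MdMYB68, against 0.154, 0.282, 0 and 0.437 RPKM with the empty vector. The log2 fold change was 3.00 ± 0.62 (SE, adjusted p = 0.00078 in edgeR), the largest adjusted p among the members. Leaving out a library in turn raised it over 0.001 in 6 of 8 cases, to at most 0.0033, and with TMM factors the value was 0.05 (adjusted p = 0.94).

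Among the other UDP-glycosyltransferases, UGT91A1 was all but undetected in the control leaves. Nbv5tr6224128, of 1823 bases, had 9.28, 11.2, 12.1 and 10.1 RPKM with MdMYB68, against 0, 0, 0 and 0.0340 RPKM with the empty vector. The 4 empty vector libraries held 2 reads in all, both in the fourth. The ratio of reads per mapped read was 1203, with a 95% Clopper-Pearson interval of 333 to 9943 that covers counting error only. Without the fourth empty vector library no read was left in that group, and MdMYB68 was then at least 593-fold higher, taking 3 reads in the group as the limit of detection. All of its reads were uniquely placed.

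UGT92A1, Nbv5tr6242385, had 32.2, 36.7, 39.9 and 33.5 RPKM with MdMYB68, against 0.911, 1.34, 0.666 and 1.23 RPKM with the empty vector. Its log2 fold change was 5.09 ± 0.21 (SE, adjusted p = 5.4e-09 in edgeR). UGT91C1, Nbv5tr6231811, was the third most abundant UDP-glycosyltransferase with MdMYB68 and the most abundant with the empty vector. It had 87.2, 81.4, 105 and 97.9 RPKM with MdMYB68, against 8.14, 4.42, 5.74 and 5.12 RPKM with the empty vector, a ratio of means of 15.8 and a log2 fold change of 3.99 ± 0.20 (SE, adjusted p = 2.0e-08 in edgeR). The substrates of UGT91A1, UGT92A1 and UGT91C1 are not given in the annotation.

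Nbv5tr6222199 is annotated as a zeatin O-glucosyltransferase, an enzyme that stores the cytokinin zeatin as a glucoside, while its Arabidopsis match is UGT74D1, which acts on auxins. It had 5.06, 6.59, 6.39 and 5.31 RPKM with MdMYB68, against 0.809, 0.891, 0.769 and 0.994 RPKM with the empty vector. The log2 fold change of 2.75 ± 0.20 (SE, adjusted p = 3.0e-07 in edgeR) lay 0.60 below the median of all listed contigs, and its sign turned with TMM factors, at -0.20 (adjusted p = 0.35).

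**Figure D2:**
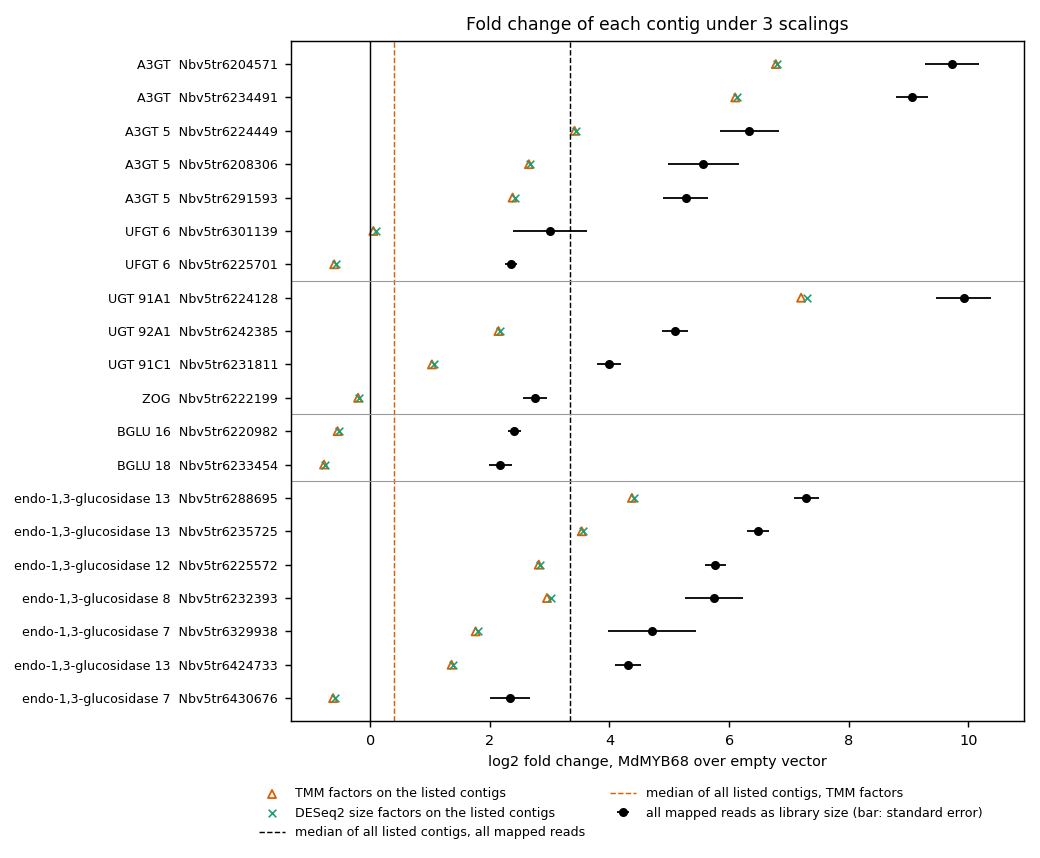
Log2 fold change, MdMYB68 over empty vector, of each of the 20 contigs under 3 scalings, with all mapped reads as library size (points, bars for the standard error), TMM factors on the listed contigs (triangles) and DESeq2 size factors on the listed contigs (crosses). The dashed lines mark the median of all 3305 listed contigs, 3.34 with all mapped reads and 0.40 with TMM factors. All 20 points lie above 0 with all mapped reads, while 5 of them, both BGLU contigs included, lie below 0 with either set of factors.

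Both beta-glucosidases were detected in every control library, and their log2 fold changes were among the 4 smallest of the 20. BGLU45, Nbv5tr6220982, annotated as beta-glucosidase 16 and 2238 bases long, had 40.1, 41.7, 41.3 and 35.5 RPKM with MdMYB68, against 7.30, 6.59, 7.95 and 7.99 RPKM with the empty vector. It was the second most abundant member with the empty vector. The mean was 39.6 ± 2.83 RPKM with MdMYB68 and 7.46 ± 0.656 RPKM with the empty vector (SD, n = 4 each), a ratio of 5.32 and a log2 fold change of 2.41 ± 0.11 (SE, adjusted p = 1.0e-08 in edgeR). With TMM factors the value was -0.54 and passed the test as lower (adjusted p = 0.00089).

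Beta-glucosidase 18, Nbv5tr6233454, carries no Arabidopsis symbol. It had 6.41, 7.25, 7.12 and 8.87 RPKM with MdMYB68, against 1.60, 2.03, 1.49 and 1.44 RPKM with the empty vector. The log2 fold change of 2.18 ± 0.19 (SE, adjusted p = 1.1e-06 in edgeR) was the smallest of the 20 and became -0.77 with TMM factors (adjusted p = 0.0040). Relative to the median of all listed contigs it lay 1.17 lower, and BGLU45 0.93 lower.

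The glucan endo-1,3-beta-glucosidases held the second most abundant member with MdMYB68. Nbv5tr6225572, annotated as endo-1,3-beta-glucosidase 12 and 2702 bases long, had 805, 758, 845 and 809 RPKM with MdMYB68, against 12.1, 16.6, 13.6 and 16.6 RPKM with the empty vector. It was the most abundant member in the control leaves. Its mean was 804 ± 35.9 RPKM with MdMYB68 and 14.7 ± 2.26 RPKM with the empty vector (SD, n = 4 each), a ratio of 54.6 and a log2 fold change of 5.77 ± 0.17 (SE, adjusted p = 7.3e-10 in edgeR). Nearly every one of its reads was uniquely placed.

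Endo-1,3-beta-glucosidase 13 was the name of 3 contigs. Nbv5tr6235725, of 581 bases, had 107, 100.0, 106 and 83.1 RPKM with MdMYB68, against 1.29, 1.24, 0.799 and 1.07 RPKM with the empty vector, a log2 fold change of 6.49 ± 0.18 (SE, adjusted p = 5.3e-10 in edgeR). Nbv5tr6288695 had 21.3, 20.6, 20.8 and 17.9 RPKM with MdMYB68, against 0.112, 0.138, 0.109 and 0.136 RPKM with the empty vector, where each library held 3 or 4 reads. Its log2 fold change was 7.29 ± 0.22 (SE, adjusted p = 6.8e-10 in edgeR) with all reads and 6.91 with the 60.9% that were uniquely placed. Both carry the symbol AT4G05430, which in Arabidopsis encodes a protein with the X8 domain, so their name and this symbol differ in function. The best Arabidopsis hit is named for the X8 domain for Nbv5tr6288695, but as a glucan endo-beta-glucosidase 13 for Nbv5tr6235725.

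Nbv5tr6424733, the other contig of this name, had 13.2, 12.0, 13.6 and 13.8 RPKM with MdMYB68, against 0.631, 0.818, 0.651 and 0.541 RPKM with the empty vector. Only 0.368% of its reads were uniquely placed, 6 in all, so its log2 fold change of 4.31 ± 0.21 (SE, adjusted p = 1.5e-08 in edgeR) rests on reads shared with other contigs. These 6 reads gave 3.67 ± 1.84 (SE), which did not pass the test (adjusted p = 0.073).

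The endo-1,3-beta-glucosidase 7 contigs, Nbv5tr6329938 and Nbv5tr6430676, match AT1G09460, also a gene with the X8 domain. Nbv5tr6329938 had 6.46, 4.56, 5.44 and 3.53 RPKM with MdMYB68, against 0, 0.502, 0.193 and 0.0553 RPKM with the empty vector. The second empty vector library held 36 of its 53 empty vector reads, and the log2 fold change of 4.71 ± 0.74 (SE, adjusted p = 0.00011 in edgeR) was 5.89 without it. Uniquely placed reads alone gave 6.84, but from 178 reads with MdMYB68 and only 1 with the empty vector, so the size of that value is uncertain. TMM factors gave 1.76, which did not pass the test (adjusted p = 0.050). Nbv5tr6430676 had 5.70, 4.89, 5.20 and 3.81 RPKM with MdMYB68, against 0.528, 0.927, 1.62 and 0.791 RPKM with the empty vector, a log2 fold change of 2.34 ± 0.33 (SE, adjusted p = 4.3e-05 in edgeR) that became -0.62 with TMM factors (adjusted p = 0.105). In the MdMYB68 libraries the first of these stood at 0.928 to 1.13 times the level of the second, and in the empty vector libraries at 0 to 0.542 times. Uniquely placed reads were 12.0% and 31.3% of their reads, so the split between them is uncertain.

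Endo-1,3-beta-glucosidase 8, Nbv5tr6232393, is the shortest member at 318 bases. It had 4.56, 4.34, 5.74 and 4.29 RPKM with MdMYB68, against 0, 0.0983, 0 and 0.195 RPKM with the empty vector, from 44 to 57 reads in a library with MdMYB68 and 3 reads in all with the empty vector. The ratio of reads per mapped read was 61.9, with a 95% Clopper-Pearson interval of 20.9 to 303. Without the fourth empty vector library 1 read was left, and the ratio was 137 (24.4 to 5453). With TMM factors the log2 fold change was 2.96 and just missed the threshold of the test (adjusted p = 0.0011), beside 5.74 with all mapped reads.

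Across the 20 members, the median share of uniquely placed reads was 99.0%, beside 77.4% over all listed contigs. With uniquely placed reads alone, 19 members could be tested, all 19 had a positive log2 fold change and 18 were called higher, where 80.3% of the 2907 contigs with such reads were. For single members the exact two-sided permutation test of log2(RPKM + 1) gave 0.0286 each time, the smallest p that 4 libraries against 4 allow.

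**Figure D3:**
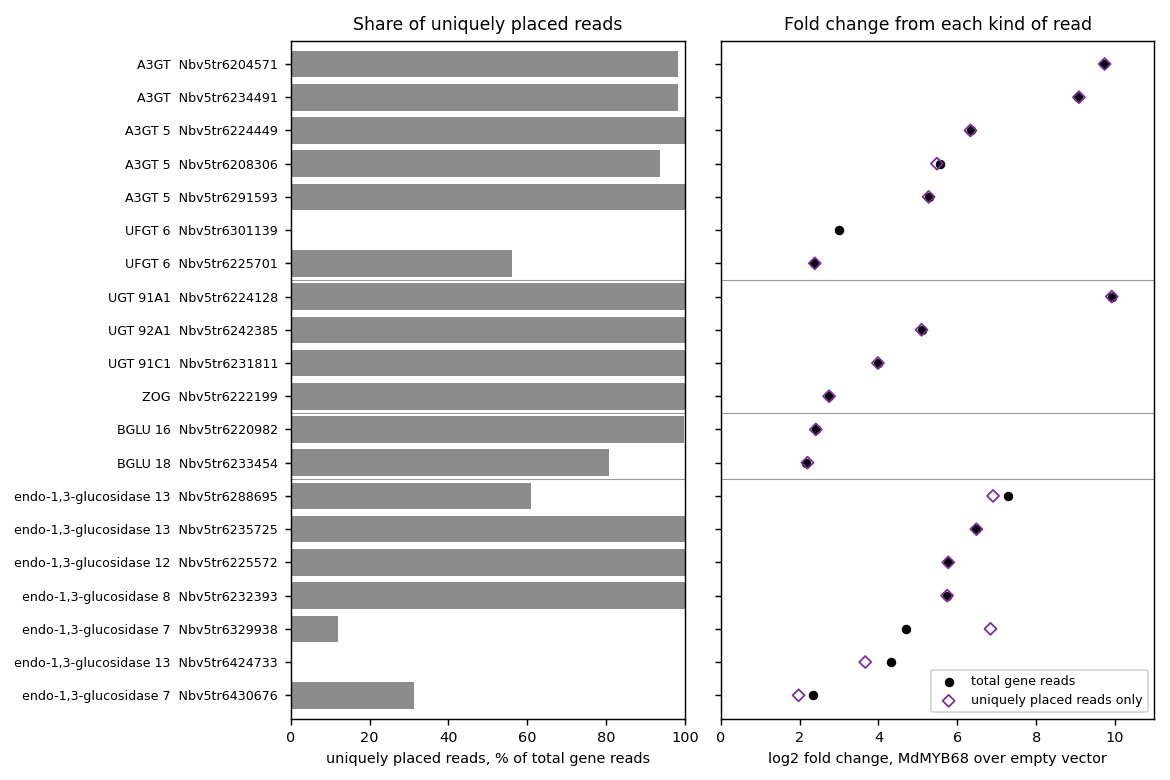
Left, uniquely placed reads as a percent of all reads of each of the 20 contigs over the 8 libraries, with bars from 0. Right, log2 fold change, MdMYB68 over empty vector, from all reads (points) and from uniquely placed reads alone (diamonds), with all mapped reads as library size. For 16 contigs at least 50% of reads are uniquely placed and both values lie close together, and the UFGT 6 contig Nbv5tr6301139 has no diamond because it has no uniquely placed read.

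Enzymes that work beside the members, found by words of the annotation, were described by counts only, which are to be read against the 83.4% of all listed contigs that were called higher and the 57.9% that were positive with TMM factors. Contigs annotated as glycosyltransferases that add a second sugar to a flavonoid glucoside were 4, and all 4 were called higher with a median log2 fold change of 6.18 and stayed positive with TMM factors. Of these, the flavanone 7-O-glucoside rhamnosyltransferase Nbv5tr6223116 averaged 16.6 ± 1.16 RPKM with MdMYB68 and 0.277 ± 0.0393 RPKM with the empty vector (SD, n = 4 each). The cyanidin-3-O-glucoside glucuronosyltransferase Nbv5tr6202007 had 232 reads with MdMYB68 and none with the empty vector, and was at least 74.1-fold higher by the same limit. In Arabidopsis Nbv5tr6223116 matched AT5G49690, as did the UGT91C1 contig Nbv5tr6231811, and Nbv5tr6221214 matched UGT72B3. Nbv5tr6202007 matched AT2G22930, and Nbv5tr6409620 carried no Arabidopsis symbol. The second-sugar function of these contigs is taken from the annotation and was not tested.

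The enzymes that build the flavonoid skeleton were 6 contigs, all called higher (83.4% of all listed contigs were), with a median of 3.69 beside 3.34 for the whole table, and 4 stayed positive with TMM factors. Dihydroflavonol-4-reductase, Nbv5tr6231158, the step toward anthocyanidins, averaged 10.6 ± 1.43 RPKM with MdMYB68 and 0.134 ± 0.0528 RPKM with the empty vector (SD, n = 4 each). Chalcone synthase, Nbv5tr6225903, the entry to the pathway, averaged 5.25 ± 0.526 RPKM with MdMYB68 and 0.144 ± 0.157 RPKM with the empty vector (SD, n = 4 each). The other listed contigs of this pathway had higher means with MdMYB68, up to 78.4 RPKM for Nbv5tr6207646. That contig is annotated as a chalcone-flavonone isomerase and matched AT5G05270, and its function was not tested. All 6 lay below the 979 RPKM of the UGT78D2 contig Nbv5tr6204571 with MdMYB68. With TMM factors their log2 fold changes ran from -0.32 (Nbv5tr6212808) to 3.35 (Nbv5tr6231158). Contigs of these enzymes outside the selected table were not examined, so the level of the whole pathway was not tested.

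Of the enzymes of monolignol synthesis, whose products the BGLU45 and UGT72E families act on in Arabidopsis, 40 contigs were listed. With MdMYB68, 35 of the 40 were called higher, a share near the 83.4% of all listed contigs. Called lower were 3, where 411 of all 3305 listed contigs were. The median was 2.65, and 18 were positive with TMM factors, where 57.9% of all listed contigs were. All 7 contigs annotated as 4-coumarate-CoA ligase or 4-coumarate-CoA ligase-like were called higher, with a median of 7.45 and a range of 2.02 to 10.1. That median is the fitted value of Nbv5tr6391396, which had 1 empty vector read and no uniquely placed read. Nbv5tr6342921 (10.1) and Nbv5tr6369197 (9.12) had no empty vector read and no uniquely placed read. The reads of Nbv5tr6215803 (9.71) were nearly all uniquely placed. The ligase-like contigs Nbv5tr6214278 and Nbv5tr6243678 matched ACOS5 and AT4G05160. The ligases had the highest median of the enzymes in this list. Medians were 5.15 for hydroxycinnamoyltransferase, 3.32 for caffeoyl-CoA O-methyltransferase and 2.61 for caffeic acid O-methyltransferase. They were 2.55 for cinnamoyl-CoA reductase, 2.51 for phenylalanine ammonia-lyase and 2.29 for trans-cinnamate 4-monooxygenase. The 3 called lower were the contigs of a probable cinnamyl alcohol dehydrogenase 1, with a median of -2.13. Callose synthase 7, Nbv5tr6207473, which makes the glucan that endo-1,3-beta-glucosidases cut, averaged 51.7 ± 5.41 RPKM with MdMYB68 and 6.81 ± 0.500 RPKM with the empty vector (SD, n = 4 each). Its log2 fold change of 2.92 ± 0.12 (SE, adjusted p = 5.9e-09 in edgeR) became -0.03 with TMM factors.

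Among other wall glycosidases, 16 of 18 beta-galactosidase contigs were called higher, a share near the 83.4% of all listed contigs, and 15 were positive with TMM factors, where 57.9% of all listed contigs were. Their median was 4.57, and the 2 called lower were contigs of BGAL8, where 411 of all 3305 listed contigs were called lower. The median share of uniquely placed reads of the beta-galactosidase contigs was 33.1%. With such reads alone 16 could be tested, of which 13 were positive and 12 called higher, where 80.3% of all contigs with such reads were. All 9 endoglucanase contigs, of the kind that cut cellulose-type glucans, were called higher (83.4% of all listed contigs were) with a median of 4.61. With TMM factors 8 were positive and 2 were called higher, where 29.2% of all listed contigs were called higher. Their median share of uniquely placed reads was 7.22%. None of these lists was tested as a set.

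**Figure D4:**
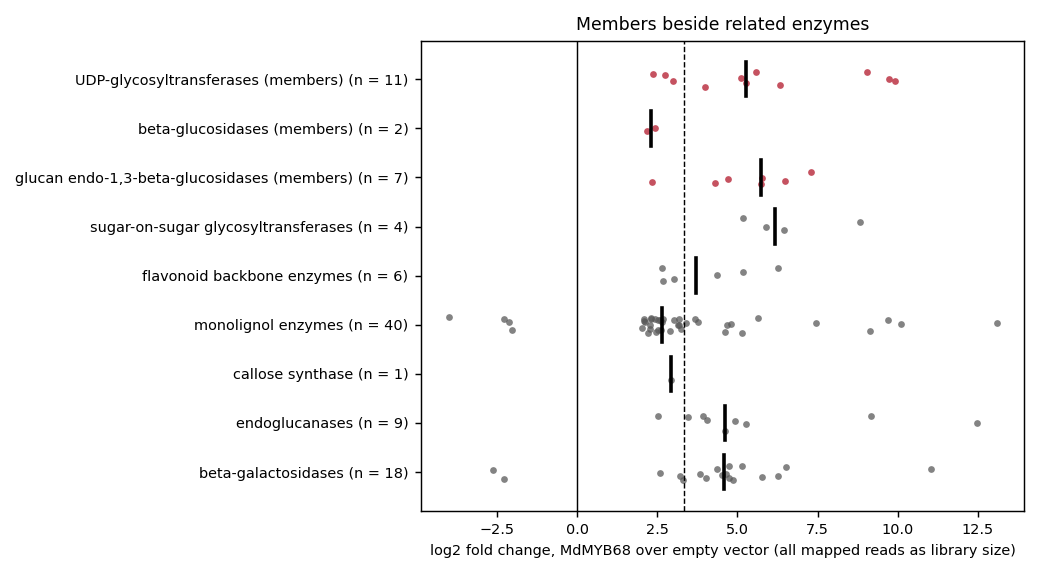
Log2 fold change, MdMYB68 over empty vector with all mapped reads as library size, of each member (red) and of each listed contig of the related enzymes (grey), with a bar at the median of each row and a dashed line at the median of all 3305 listed contigs, 3.34. Values of contigs with few or no empty vector reads are fitted values and not bounds. The beta-glucosidases, the callose synthase and the median of the monolignol enzymes lie left of the dashed line, and the medians of all other rows lie right of it. With TMM factors the 2 beta-glucosidases, the callose synthase and the median of the monolignol enzymes (-0.30) fall below 0, as do single contigs of other rows.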

How the data were processed

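Sequencing libraries were prepared from RNA of infiltrated Nicotiana benthamiana leaves. The authors used CLC Genomics Workbench to trim the reads and to map them to a transcriptome of this species that consists of a primary and an alternate set of contigs. The authors deposited counts per contig and library without normalization, as total gene reads and as uniquely placed reads. They also deposited RPKM values, which are scaled to the reads of the contig's own reference set. Columns of the authors' fold change, RPKM difference, p-value, corrected p-value and their group means were not used.

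The table holds only selected contigs, so its column sums are not the depth. The reads mapped to each reference set were recovered from the counts, the contig lengths and the RPKM, to a relative deviation of at most 3.1e-08. Their sum was the library size and the base of the RPKM given here, because all mapped reads exceed the primary reads 1.20-fold and the alternate reads 5.90-fold in the median library. Counts were tested in R 4.3.3 by the quasi-likelihood test of edgeR 4.0.16. Normalization factors were 1, there was no covariate, and p-values had Benjamini-Hochberg adjustment over all 3305 contigs at 0.001. A standard error is the log2 fold change divided by the square root of F, and at few reads it may fall below the counting error. Ratios with 1 to 3 reads in a group carry a 95% Clopper-Pearson interval, and a group with no read a floor of 3 reads. These cover counting error only. The fit was tested on simulated data. Figures and intervals used Python 3.11.15 with numpy 2.4.6, scipy 1.17.1, pandas 2.3.3 and matplotlib 3.10.9.

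The members, the related lists and the cell type markers were chosen with earlier results of these data known. The rule for naming took, in each kind of enzyme, the 6 members with most reads among those with at least 50% uniquely placed reads, members lower in MdMYB68 or with no read in a group, members matched to BGLU45 or a UGT72 gene, and members whose call or sign an alternative changed, which came to all 20. Alternatives were uniquely placed reads, TMM factors, DESeq2 1.42.0 (size factors of its own, or from all mapped reads), limma 3.58.1 with a pseudocount of 1 or 0.1 RPKM before the log2, the library total taken as the reads of the contig's reference set or as those outside the listed contigs, a threshold of 0.05, a filter at 10 reads per library on average, each library left out in turn, and a replicate block. The limma fits used the deposited RPKM, scaled to the reads of the contig's own reference set, and not the RPKM given here. The table gives no genome coordinates or sequences, and none are given here.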

Additional observations from a re-analysis of the deposited data

Results flagged for a closer look

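In 2 of the 40 groups of 4 libraries examined, a single library stood apart from the other 3 by Dixon's test at 95%, about as many as chance gives, which is 1 in 20 groups. Nbv5tr6208306, the UGT72E1 contig, was at 0.378 RPKM in the first empty vector library, where the other 3 had 0.0265 to 0.0567 RPKM, and its log2 fold change was 6.98 without that library, beside 5.57 with it. Nbv5tr6224128, the UGT91A1 contig, was at 0.0340 RPKM in the fourth empty vector library, from 2 reads, where the other 3 had no read.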

How the results depend on the processing

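With all mapped reads as library size, 20 members were called, 20 higher and 0 lower with MdMYB68. TMM factors on the listed contigs gave 13 called, 11 higher and 2 lower, and DESeq2 with its own size factors gave 12 called higher and 3 lower. The log2 fold changes that turned were, with TMM and then with DESeq2 factors, -0.54 and -0.52 for Nbv5tr6220982, -0.20 and -0.18 for Nbv5tr6222199, -0.60 and -0.57 for Nbv5tr6225701, -0.77 and -0.75 for Nbv5tr6233454, and -0.62 and -0.59 for Nbv5tr6430676. Both kinds of factor assume that most listed contigs did not change, and they move all contigs by about the same amount.

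Leaving out each library in turn gave 19 to 20 calls, and all 6 lost calls of the 160 were of Nbv5tr6301139. The replicate numbers do not pair the libraries, since the correlations of same-numbered libraries were between -0.069 and -0.0046. With the replicate block 18 members were called, without Nbv5tr6301139 (log2 fold change 3.34 beside 3.00 without the block, adjusted p = 0.012 in edgeR) and Nbv5tr6329938 (5.22 beside 4.71, adjusted p = 0.0017). Uniquely placed reads gave 18 calls and limma on log2(deposited RPKM + 0.1) 19, while the other alternatives kept all 20. In every setting that gives a value, 10 of the 20 members were called higher. Nbv5tr6220982 and Nbv5tr6225701 also passed the test in every setting, but as lower with TMM and DESeq2 factors. Depth limits the control level of Nbv5tr6224128 and Nbv5tr6232393, which rest on 2 and 3 empty vector reads, and shared reads limit Nbv5tr6301139 and Nbv5tr6424733.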
